A study of Homo sapiens with 6 samples.

Results

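The kinesin superfamily was represented by 38 of the 17811 genes in the deposited table of 22RV1 prostate cancer cells. Members were the genes whose Ensembl identifier carries a protein-coding symbol made of KIF or KIFC, a number and at most 1 closing letter. GENCODE release 29 holds 42 such symbols, and KIF19, KIF25, KIF2B and KIF4B were not analysed here. The 38 genes were grouped by textbook role into 12 mitotic kinesins, 15 transport kinesins and 11 ciliary or other kinesins. All 38 passed the filter on low values, a normalized read count of at least 10 in at least 2 libraries.

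Poly(A) RNA was sequenced from 3 lines of 22RV1, a human prostate cancer cell line, with 2 libraries per line. The cells stably expressed a short hairpin against IMPDH2 (shIMPDH2), against IMPA1 (shIMPA1) or against luciferase (shLuc, the control), and every line was kept in RPMI-1640 supplemented with FBS (serum). IMPDH2 catalyses the committed step toward guanine nucleotides, and IMPA1 is an inositol monophosphatase that supplies free inositol. With 1 stable line per group, effects of the target gene, the hairpin and the line cannot be told apart. Nothing in the labels ties a library to a culture of its own, so the p-values describe library-to-library spread that may be technical. Both knockdowns are set against the same shLuc libraries.

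Kinesins are motors that use ATP to move along microtubules or to take them apart. Mitotic kinesins build the bipolar spindle, move chromosomes and organise the midzone at which a cell divides, and most of their genes are transcribed mainly in G2 and mitosis. Transport kinesins carry vesicles, endosomes, mitochondria and ciliary cargo in cells at all stages of the cycle. A further set acts at cilia, at centrioles or on microtubule growth.

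Libraries held between 20828900 and 27773294 reads. The targeted genes were checked first. IMPDH2 had normalized counts of 2932 and 3166 in shIMPDH2, 4435 and 5055 in shIMPA1, and 4269.9 and 5032 in shLuc, and IMPA1 had 1795 and 1842 in shIMPDH2, 957 and 1101 in shIMPA1, and 1621 and 1331 in shLuc. IMPDH2 fell in shIMPDH2 cells (log2 fold change -0.61, limma adjusted p = 0.00999) and IMPA1 fell in shIMPA1 cells (-0.52, 0.0145), each against shLuc. All 10 markers of prostate epithelial cancer cells were listed, with summed normalized counts of 97516 to 101730.0 in shIMPDH2, 98839 to 104842 in shIMPA1 and 126855 to 127805 in shLuc. The basal keratin KRT5 stood at 79.7 and 84.4 in shIMPDH2, at 0 and 88.9 in shIMPA1, and at 0.900 and 1.75 in shLuc. The 5 stromal markers summed to 336 to 339.7 in shIMPDH2, 348 to 471 in shIMPA1 and 1233 to 1368 in shLuc. The neuroendocrine marker CHGA stood at 261 and 298 in shIMPDH2, at 1283 and 1129 in shIMPA1, and at 540 and 596 in shLuc. SYP, another such marker, had 4796 and 5194 in shIMPDH2, 4658 and 4425 in shIMPA1, and 4791 and 4339 in shLuc. The part of these markers in the results below was not tested.

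The second shIMPA1 library stood apart from the first for mitotic genes. It was lower for 12 of 12 mitotic kinesins, with a median difference of -1.31 on the log2 scale, and by over 2-fold for 9 of them. For transport kinesins the same difference had a median of -0.01, and over all genes tested it was -0.02. The same difference for mitotic kinesins had a median of 0.04 in shIMPDH2 and 0.05 in shLuc. The shIMPA1 gap was not confined to mitotic genes. Of 17742 genes tested, 51.9% were lower in the second shIMPA1 library, and 934 differed by over 2-fold in either direction. In shIMPDH2 and shLuc 398 and 266 genes did. The median size of the difference, whatever its sign, was 0.238 in shIMPA1, 0.145 in shIMPDH2 and 0.150 in shLuc. Values without the second shIMPA1 library are therefore given beside the falls of mitotic kinesins in shIMPA1.

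Levels can be compared between genes only per length, so normalized counts were divided by the exon length of each gene in kb. In shLuc cells KIF12, a kinesin of kidney and liver epithelium, had the highest level, 2111 ± 219 per kb (SD, n = 2), followed by KIF5B, the ubiquitous heavy chain of conventional kinesin, at 1338 ± 56.0. Next came KIFC1 (1179.7 ± 34.3), KIF22 (884 ± 16.3), KIF2C (759.8 ± 34.4), KIFC2 (723 ± 106) and KIF11 (632 ± 68.4). The gaps from KIF2C to KIFC2 and from KIFC2 to KIF11 were smaller than the SD of KIFC2. Lowest per kb were KIF6 (0.973), KIF26B (4.63), KIF21B (5.53) and KIF17 (5.98).

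**Figure D1:**
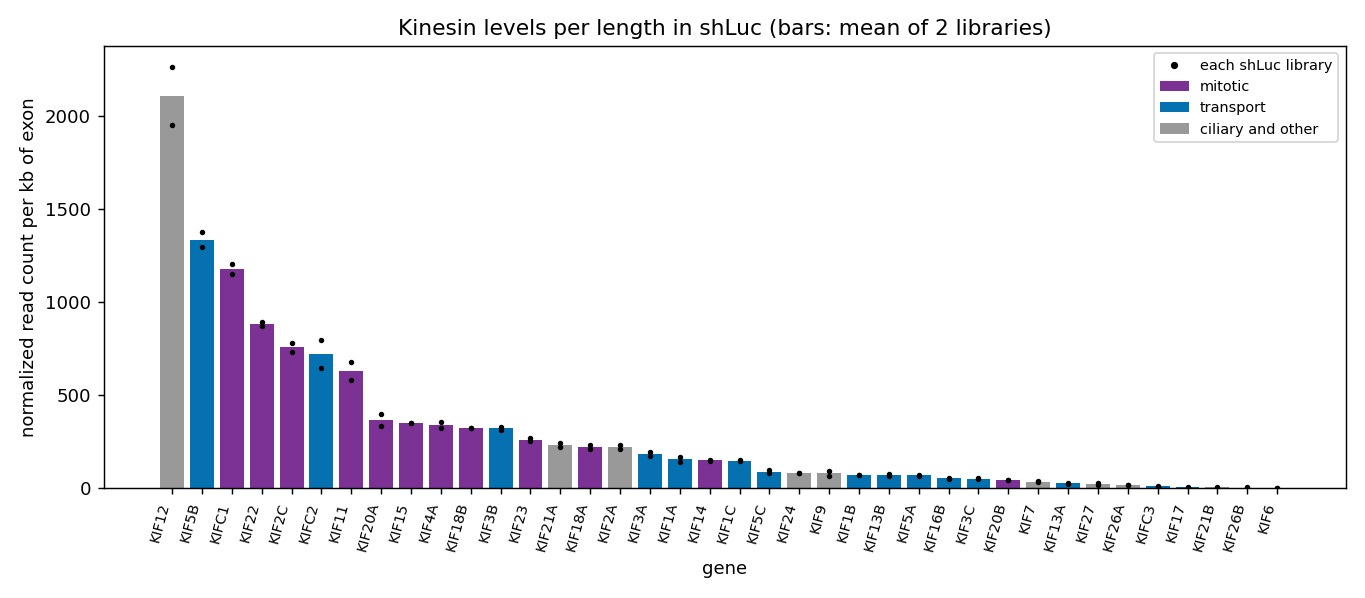
Normalized read count per kb of exon for the 38 kinesins in shLuc cells. Bars are the mean of 2 libraries, dots are the libraries, and colour gives the role. KIF12 and KIF5B lead, and 7 of the 10 highest bars are mitotic kinesins.

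The order of levels per kb differed between the lines. In shIMPDH2 cells KIF22 led with 1819 ± 122 per kb, beside KIF12 at 1777 ± 81.8, a gap within their SDs (n = 2). In shIMPA1 cells KIF12 (2513 ± 499), KIF5B (1054 ± 59.9) and KIFC2 (990.2 ± 0.499) led, and KIF22 stood at 603 ± 182 per kb.

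Mitotic kinesins were lower in shIMPA1 cells than in shLuc cells. Of 12 tested, 11 fell at a limma adjusted p under 0.05, in a comparison that called 30.2% of all genes (14.0% higher, 16.2% lower). Their median log2 fold change was -1.16, with a range of -1.50 to -0.59, beside a median of 0.02 over all genes tested. Both shIMPA1 libraries lay below both shLuc libraries for 12 of 12, as they did for 32.7% of all genes.

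In shIMPDH2 cells 1 of 12 passed against shLuc, KIF22, which was higher, in a comparison that called 17.0% of all genes (7.86% higher, 9.15% lower). The other 11 had a median log2 fold change of -0.37 beside -0.01 over all genes, and 9 of them had both shIMPDH2 libraries below both shLuc libraries, beside 33.4% of all genes. Limma called 0 of these 11 as lower, with 1 lower at an unadjusted p under 0.05. Of all 17742 genes tested, 2911 were lower at that unadjusted p. EdgeR and DESeq2, fitted to the same 6 libraries, also called 0, where they called 9.09% and 7.86% of all genes as lower. The spread of each gene in these fits came from all 6 libraries, the unlike shIMPA1 pair included. An uncalled shIMPDH2 value of a mitotic gene, here or below, is therefore not evidence of no difference. With only the shIMPDH2 and shLuc libraries in the fit, 8 of these 11 were lower, where that fit called 36.5% of all genes and 19.0% as lower. Between the knockdowns 6 of 12 mitotic kinesins were higher in shIMPDH2 than in shIMPA1, with a median of 0.85, where 26.1% of all genes were called (13.5% higher, 12.6% lower). Both shIMPDH2 libraries lay above both shIMPA1 libraries for 8 of 12, beside 31.5% of all genes.

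The size of the fall in shIMPA1 rested on the second library, and its direction did not. Without that library 8 of 12 were lower with a median of -0.49, where 16.1% of all genes were lower. Without the first library 12 of 12 were lower with a median of -1.83 (23.9% of all genes). Without the first or the second shLuc library 1 of 12, KIF11, passed as lower (6.74% and 6.43% of all genes). With all libraries edgeR called 10 of 12 as lower and DESeq2 called 4 (KIF11, KIF22, KIF2C and KIFC1), beside 16.4% and 14.2% of all genes. Limma with only the shIMPA1 and shLuc libraries called 7 of 12 (13.0% of all genes), and limma without the mean-variance trend called 1 (10.8%).

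The difference between the knockdowns also moved with that library. Without the second shIMPA1 library 4 of 12 mitotic kinesins were higher in shIMPDH2 with a median of 0.19 (15.8% of all genes higher), and without the first 12 of 12 with a median of 1.52 (21.5%). EdgeR called 4 and DESeq2 2 of 12 as higher in shIMPDH2, beside 13.2% and 11.8% of all genes. Limma with only these 2 groups called 3 (10.0% of all genes), and limma without the trend called 2 (7.51%). Without the first or the second shLuc library 3 of 12 were called (9.91% and 9.88% of all genes), and without the first or the second shIMPDH2 library 2 of 12 (4.97% and 3.39%).

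**Figure D2:**
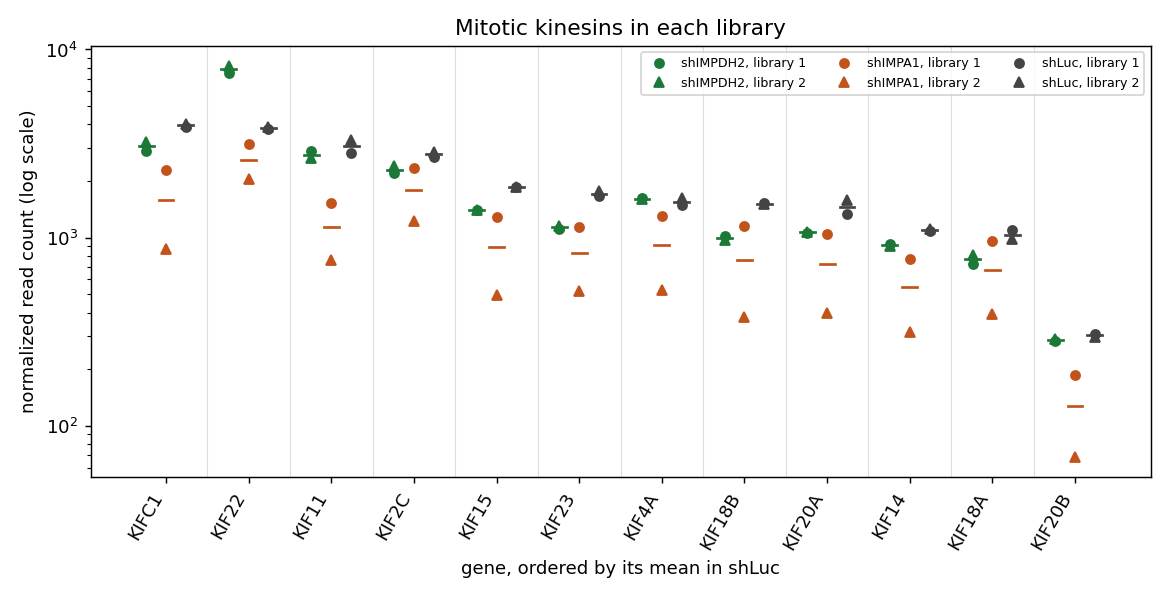
Normalized read counts of the 12 mitotic kinesins in each library, on a log axis, with shIMPDH2, shIMPA1 and shLuc from left to right within each gene. Circles are library 1, triangles library 2 and dashes the mean of 2. The shIMPA1 triangle is the lowest point of every gene, and KIF22 is the gene whose shIMPDH2 points both lie above shLuc.

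The promoters of mitotic kinesins shared short sequences that the grouping did not use. Many genes of G2 and mitosis carry a cell cycle gene homology region (CHR), which the MuvB complexes bind, and CCAAT boxes, which NF-Y binds. Windows from 200 bases before to 30 after the start site (RefSeq, GRCh38.p14) were searched on both strands. The CHR letters were TTTGAA, its reverse complement TTCAAA, and the palindrome TTCGAA. The box was CCAAT, with its reverse complement ATTGG. RefSeq windows were found for all 12 mitotic kinesins, and 10 of them held CHR letters (83.3%), against 8.21% of the 12295 promoters of genes tested and 12.6% of all 27305 promoters. The transport kinesins had 11 windows, of which 1 held CHR letters (KIF5B), and the ciliary and other kinesins had 8, of which 1 did (KIF24). The CCAAT box was found in 10 of 12 mitotic windows, 3 of 11 transport windows and 32.1% of promoters of genes tested. Both kinds were found together in 9 of 12 mitotic windows and in 3.29% of promoters of genes tested. No matches overlapped each other in any kinesin window.

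KIF20A and KIF2C held none of the searched CHR letters. TTTAAA, a variant searched after these results were seen, was in 3 of 12 mitotic windows, KIF20A and KIF2C among them, and in 5.47% of promoters of genes tested. A match describes letters, and binding was not tested.

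The 4 mitotic promoters shown are those of the called members with the largest log2 fold changes, and the same rule, among members with a RefSeq window, gave the 2 transport promoters set beside them. Each is printed 5′ to 3′ on the strand of the gene, with the matches to the CHR and CCAAT letters in capitals. Windows are at chr16:29790551-29790780 (+) for KIF22, chr10:92592930-92593159 (+) for KIF11, chr6:33391623-33391852 (+) for KIFC1, chr10:89701390-89701619 (+) for KIF20B, chr1:20717978-20718207 (-) for KIF17 and chr20:16573419-16573648 (-) for KIF16B.
KIF22: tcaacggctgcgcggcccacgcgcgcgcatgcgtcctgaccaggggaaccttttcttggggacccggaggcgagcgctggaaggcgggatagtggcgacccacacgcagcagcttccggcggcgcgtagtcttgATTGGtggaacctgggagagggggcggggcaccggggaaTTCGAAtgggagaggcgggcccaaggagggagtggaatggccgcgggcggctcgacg
KIF11: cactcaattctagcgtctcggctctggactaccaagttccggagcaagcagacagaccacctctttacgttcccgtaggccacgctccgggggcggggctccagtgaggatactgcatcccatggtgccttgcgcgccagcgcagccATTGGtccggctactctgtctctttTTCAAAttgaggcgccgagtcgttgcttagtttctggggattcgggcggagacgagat
KIFC1: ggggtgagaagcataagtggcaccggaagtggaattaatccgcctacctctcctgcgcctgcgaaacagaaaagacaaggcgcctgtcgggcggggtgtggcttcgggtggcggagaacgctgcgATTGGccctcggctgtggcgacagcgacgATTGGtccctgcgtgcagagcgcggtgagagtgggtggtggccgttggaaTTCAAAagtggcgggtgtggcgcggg
KIF20B: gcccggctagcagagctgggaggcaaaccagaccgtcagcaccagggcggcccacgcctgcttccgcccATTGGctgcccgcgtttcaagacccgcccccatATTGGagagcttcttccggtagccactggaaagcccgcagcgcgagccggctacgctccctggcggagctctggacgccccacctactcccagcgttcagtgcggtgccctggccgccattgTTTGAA
KIF17: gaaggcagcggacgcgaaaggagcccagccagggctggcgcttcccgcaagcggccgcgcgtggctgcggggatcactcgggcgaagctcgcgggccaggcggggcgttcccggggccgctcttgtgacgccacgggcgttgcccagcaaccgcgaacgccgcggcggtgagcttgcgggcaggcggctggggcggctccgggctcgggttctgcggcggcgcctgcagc
KIF16B: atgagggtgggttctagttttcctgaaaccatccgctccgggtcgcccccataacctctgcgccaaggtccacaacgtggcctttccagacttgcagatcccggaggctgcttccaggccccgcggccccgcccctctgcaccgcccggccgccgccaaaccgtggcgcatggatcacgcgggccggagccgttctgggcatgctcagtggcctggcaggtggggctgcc
In KIF11 the box starts at position -53 and the CHR letters at -28 relative to the start site, and in KIF22 they start at -66 and -27. In KIFC1 and KIF20B the CHR letters lie after the start site, at positions 5 and 25. The KIF17 and KIF16B windows hold none of these letters.

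Motors that set up the bipolar spindle were among those with the largest falls in shIMPA1. KIF11, the tetramer that slides spindle microtubules apart (chromosome 10, 92593286 to 92655395, plus strand, GRCh38), had normalized counts of 2874 and 2654 in shIMPDH2, 1522 and 764 in shIMPA1, and 2834 and 3304 in shLuc. Both shIMPA1 libraries lay below all 4 others, and shIMPDH2 overlapped shLuc. Its log2 fold change was -1.50 (SE 0.24, adjusted p = 0.00120) in shIMPA1 against shLuc, -0.15 (0.715) in shIMPDH2 against shLuc and 1.36 (0.00267) in shIMPDH2 against shIMPA1. Both calls held when each library of the groups compared was left out in turn, with -1.01 against shLuc and 0.86 between the knockdowns without the second shIMPA1 library.

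KIFC1, the minus-end motor HSET that clusters centrosomes and focuses spindle poles, had normalized counts of 2898 and 3223 in shIMPDH2, 2297 and 871 in shIMPA1, and 3865 and 4027 in shLuc. The pseudogene RPL12P1 on the other strand, not analysed here, shares 424 exon bases with KIFC1, or 12.7% of its exon length. Reads of KIFC1 are therefore in part uncertain. The 3 groups did not overlap for KIFC1, with shIMPA1 lowest and shLuc highest. Against shLuc the log2 fold change was -1.48 in shIMPA1 (SE 0.32, adjusted p = 0.00574) and -0.37 in shIMPDH2 (0.463). The value in shIMPA1 was -0.78 without its second library. Between the knockdowns KIFC1 was higher in shIMPDH2 (1.11, 0.0257), a value of 0.41 without the second shIMPA1 library. That call was lost without either shLuc or either shIMPDH2 library (adjusted p = 0.0619 to 0.172) and in DESeq2.

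KIF15, which helps keep the spindle bipolar beside KIF11, had normalized counts of 1405 and 1404 in shIMPDH2, 1281 and 499 in shIMPA1, and 1868 and 1854 in shLuc. It was lower in shIMPA1 than in shLuc (log2 fold change -1.22, SE 0.31, adjusted p = 0.0132), and -0.54 without the second shIMPA1 library. Both shIMPDH2 libraries lay below shLuc and above shIMPA1, at -0.41 against shLuc (0.400). The SE behind that p is shared by all groups, so it includes the gap between the shIMPA1 libraries.

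KIF22, the chromokinesin Kid that pushes chromosome arms toward the spindle equator, passed in opposite directions in the knockdowns. It lies on chromosome 16 (29790719 to 29805385, plus strand). It had normalized counts of 7473 and 8218 in shIMPDH2, 3153 and 2044 in shIMPA1, and 3762 and 3862 in shLuc. The 3 groups did not overlap, and shIMPDH2 was highest. The log2 fold change was 1.04 in shIMPDH2 against shLuc (SE 0.18, adjusted p = 0.00268), -0.59 in shIMPA1 against shLuc (0.0279) and 1.63 in shIMPDH2 against shIMPA1 (0.000124). The difference between the knockdowns held when each of their libraries was left out. The rise in shIMPDH2 lost its call without the second shIMPDH2 library (0.97, 0.0555). The fall in shIMPA1 was -0.27 without the second shIMPA1 library and lost its call there and without any 1 of the shLuc or shIMPDH2 libraries (adjusted p = 0.0592 to 0.152).

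An antisense gene not analysed here, AC009133.4, shares 561 exon bases with KIF22, or 13.01% of its exon length. Whether reads were counted by strand is not given in the sources used here, so reads of the antisense gene and of KIF22 cannot be told apart. The next protein-coding genes after KIF22 on the same strand are MAZ, PRRT2 and PAGR1. Their log2 fold changes in shIMPDH2 against shLuc were 0.14, -0.02 and 0.14 (limma adjusted p = 0.511, 0.936 and 0.482), so these neighbours did not pass there. PRRT2 was lower in shIMPA1 than in shLuc (-0.68, 0.00824) and higher in shIMPDH2 than in shIMPA1 (0.66, 0.0116). MAZ and PAGR1 passed in neither of those comparisons.

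KIF2C, the depolymerase MCAK that corrects wrong kinetochore attachments, had normalized counts of 2198 and 2393 in shIMPDH2, 2336 and 1229 in shIMPA1, and 2681 and 2859 in shLuc. The first shIMPA1 library fell between the shIMPDH2 libraries, and all 4 knockdown libraries lay below shLuc. In shIMPA1 against shLuc the log2 fold change was -0.71 (SE 0.23, adjusted p = 0.0367), and -0.24 (0.150) without the second shIMPA1 library.

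KIF4A, the chromokinesin that sets the length of the midzone with PRC1, had normalized counts of 1618 and 1602 in shIMPDH2, 1309 and 525 in shIMPA1, and 1482 and 1623 in shLuc. It was lower in shIMPA1 than in shLuc (-0.90, adjusted p = 0.0430; -0.25 and 0.145 without the second shIMPA1 library). It overlapped between shIMPDH2 and shLuc (0.05, 0.924). KIF4A has a near-identical copy, KIF4B, and shares 77 exon bases with PDZD11, so its reads are in part uncertain. KIF18A, which damps chromosome oscillation, was the mitotic kinesin that did not pass in shIMPA1 (-0.76, 0.0797), with -0.12 without the second shIMPA1 library. KIF18B, which limits astral microtubules, was lower (-1.20, 0.0272), and -0.40 without the second shIMPA1 library. The calls of KIF2C, KIF4A and KIF18B in shIMPA1 were also lost without either shIMPDH2 library.

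The motors of the midzone and of cytokinesis fell in shIMPA1. KIF23, the centralspindlin subunit MKLP1, had normalized counts of 1114 and 1158 in shIMPDH2, 1141 and 519 in shIMPA1, and 1662 and 1768 in shLuc. Both knockdowns lay below shLuc, and the first shIMPA1 library lay between the shIMPDH2 libraries. Against shLuc the log2 fold change was -1.15 in shIMPA1 (SE 0.27, adjusted p = 0.00828; -0.59 without its second library) and -0.59 in shIMPDH2 (0.152).

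KIF20A, the motor MKLP2 that brings the chromosomal passenger complex to the midzone, had normalized counts of 1057 and 1074 in shIMPDH2, 1050.1 and 399 in shIMPA1, and 1329 and 1579 in shLuc. KIF20B, the motor MPP1 of late cytokinesis, had 281 and 290.2 in shIMPDH2, 187 and 68.2 in shIMPA1, and 308 and 297 in shLuc. For both genes shIMPA1 was lowest and shLuc highest, without overlap. In shIMPA1 against shLuc the log2 fold change was -1.16 for KIF20A (adjusted p = 0.0196) and -1.41 for KIF20B (0.0103), and without the second shIMPA1 library these were -0.46 and -0.69. KIF20B was also higher in shIMPDH2 than in shIMPA1 (1.33, 0.0158), a value of 0.61 without the second shIMPA1 library. That call was lost without either shIMPDH2 library (adjusted p = 0.0955 to 0.117) and in DESeq2.

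KIF14, which recruits citron kinase to the midbody, had normalized counts of 929.9 and 908 in shIMPDH2, 775 and 314 in shIMPA1, and 1090.0 and 1113 in shLuc. The groups did not overlap, and shIMPA1 was lowest. It fell in shIMPA1 against shLuc (-1.16, SE 0.30, adjusted p = 0.0145; -0.51 without the second shIMPA1 library). Between the knockdowns it was higher in shIMPDH2 (0.90, 0.0479), and 0.25 (0.150) without that library. That call was lost without any 1 library but the first of shIMPA1.

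**Figure D3:**
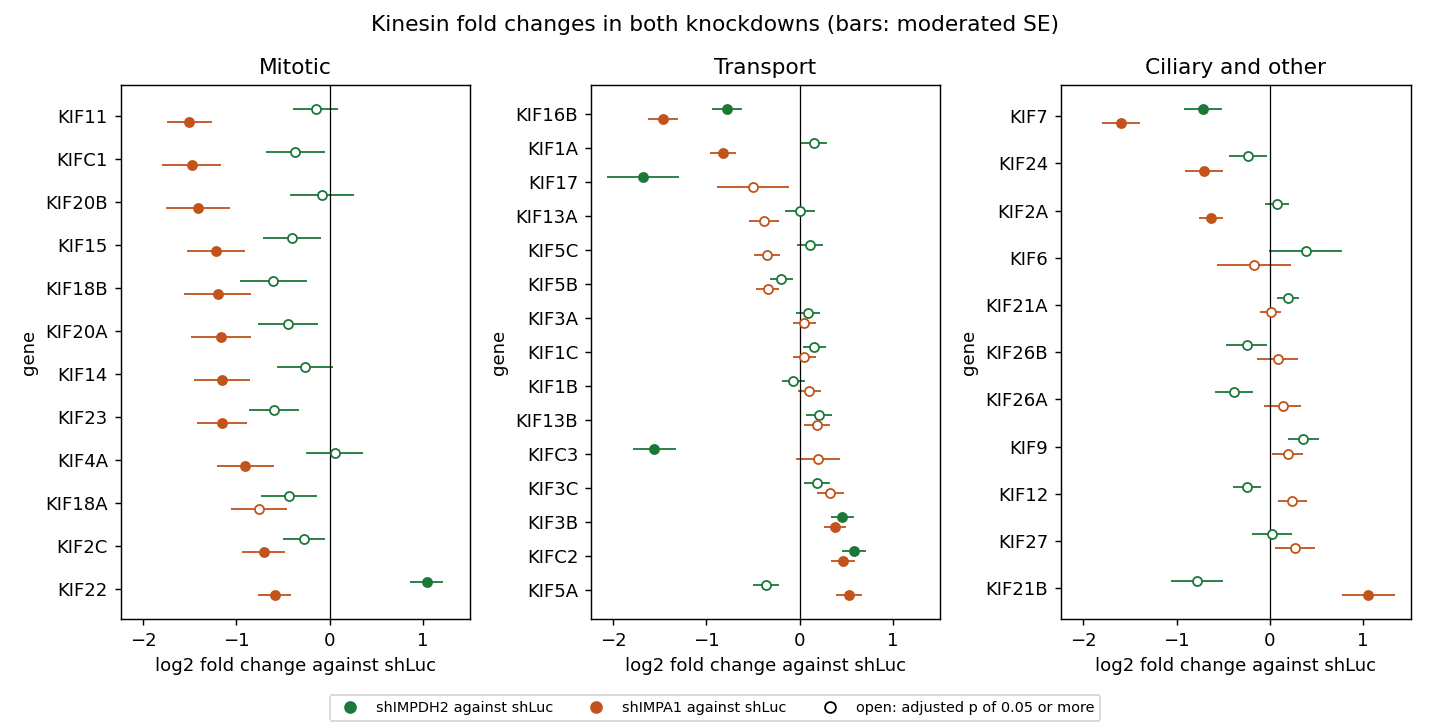
Log2 fold change against shLuc of each kinesin in shIMPDH2 and in shIMPA1, with the moderated standard error as bars and filled points at a limma adjusted p under 0.05. Mitotic kinesins lie left of 0 in shIMPA1, down to -1.50 for KIF11, while transport kinesins lie on both sides.

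Non-motor partners of the mitotic kinesins were also lower in shIMPA1. Of 16 spindle and midzone proteins, 14 fell against shLuc by limma, 11 by edgeR and 5 by DESeq2, beside 16.2%, 16.4% and 14.2% of all genes. The limma median log2 fold change was -1.03, and the median ratio to the shLuc mean was -0.37 in the first and -1.58 in the second shIMPA1 library. ANLN, the contractile ring scaffold anillin, averaged 6976 ± 23.2 in shIMPDH2, 2258 ± 1407 in shIMPA1 and 6101 ± 111 in shLuc (SD, n = 2 each). It fell in shIMPA1 against shLuc (-1.59, adjusted p = 0.00339) and was higher in shIMPDH2 than in shIMPA1 (1.78, 0.00222). AURKB, the kinase of the chromosomal passenger complex (-1.53, 0.00213), NUSAP1, which bundles spindle microtubules (-1.38, 0.00258), and INCENP, the scaffold of that complex (-1.08, 0.00731), were lower in shIMPA1 than in shLuc. In shIMPDH2 against shLuc limma and DESeq2 called 0 of 16 and edgeR called 1, as lower. Of all genes they called 9.15%, 7.86% and 9.09% as lower. At an unadjusted limma p under 0.05, 1 of 16 was lower, beside 2911 of 17742 genes. With only those 2 groups in the fit, 7 of 16 were lower and 1 was higher in shIMPDH2, beside 19.0% and 17.5% of all genes. In the limma fit of all 6 libraries AURKB was at -0.87 in shIMPDH2 against shLuc (adjusted p = 0.0510). Between the knockdowns 7 of 16 were higher in shIMPDH2 by limma, 4 by edgeR and 4 by DESeq2, beside 13.5%, 13.2% and 11.8% of all genes. With only the 2 knockdown groups in the fit, 3 were higher, beside 10.0% of all genes. The falls of ANLN, AURKB and NUSAP1 held without each of the 4 libraries compared, and that of INCENP in 2 of those 4 fits.

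Markers of proliferation moved with these genes. All 10 fell in shIMPA1 against shLuc by limma and by edgeR, and 7 by DESeq2, beside 16.2%, 16.4% and 14.2% of all genes. The median log2 fold change was -1.40 by limma, and the median ratio to the shLuc mean was -0.89 in the first and -1.89 in the second shIMPA1 library. Their summed counts were 53965 to 55739 in shIMPDH2, 17677 to 35840.2 in shIMPA1 and 63895 to 65780.3 in shLuc. PCNA, the replication clamp, averaged 9564 ± 593 in shIMPDH2, 3808 ± 1176 in shIMPA1 and 11052 ± 416 in shLuc. In shIMPA1 against shLuc the log2 fold change was -1.57 for PCNA (adjusted p = 0.000153), -1.55 for MCM2 (0.000191) and -1.29 for MCM6 (8.12e-05), both subunits of the replicative helicase, and -1.45 for CCNE2, cyclin E2 (0.000881). These 4 calls held without each library of the pair. The part of proliferation in the fall of the mitotic kinesins was not tested, and in bulk RNA fewer cells in mitosis and less RNA per cell cannot be told apart. In shIMPDH2 against shLuc limma, edgeR and DESeq2 each called 0 of 10, with 0 at an unadjusted limma p under 0.05 and a median of -0.21. Of all genes these fits called 9.15%, 9.09% and 7.86% as lower, and 5671 of 17742 had an unadjusted limma p under 0.05. With only those 2 groups in the fit, 4 of 10 were lower in shIMPDH2, beside 19.0% of all genes.

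Of 19 regulators of cell cycle promoters, the inhibitor CDKN1A among them, 10 were lower and 1 was higher in shIMPA1 than in shLuc. Of all genes 16.2% were lower and 14.0% higher. DESeq2 called 7 of the 19 as lower and 1 as higher, beside 2525 and 2166 of 17742 genes. TFDP1, the partner of E2F factors, fell in shIMPA1 (-0.57, adjusted p = 0.00466) and in shIMPDH2 (-0.40, 0.0410) against shLuc. RBBP4, a MuvB subunit (-0.60, 0.00428), and the pocket protein RBL1 (-1.02, 0.00237) fell in shIMPA1. RB1, the retinoblastoma protein, fell in shIMPA1 (-0.42, 0.0343) and was higher in shIMPDH2 than in shIMPA1 (0.73, 0.00263). In shIMPDH2 against shLuc 1 was lower, TFDP1, and 1 was higher, CDKN1A, the inhibitor p21 (0.51, 0.0118), beside 9.15% and 7.86% of all genes. With only those 2 groups in the fit, 6 were lower and 3 higher, beside 19.0% and 17.5%. With each of the 4 libraries compared left out in turn, the shIMPA1 calls of TFDP1, RBBP4, RBL1 and RB1 held in 3, 3, 4 and 1 of 4 fits, and the shIMPDH2 calls of TFDP1 and CDKN1A in 0 and 0.

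**Figure D4:**
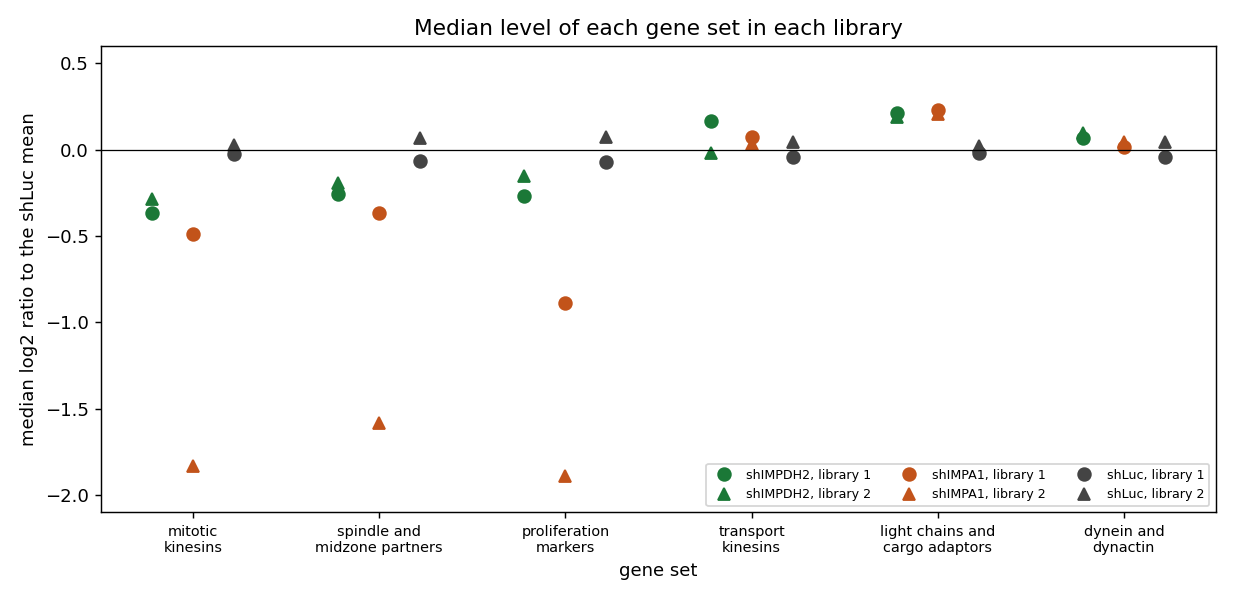
Median log2 ratio to the shLuc mean over the genes of each set, for each library, with shIMPDH2, shIMPA1 and shLuc from left to right. For mitotic kinesins the values are -0.37 and -0.29 in shIMPDH2, -0.49 and -1.83 in shIMPA1, and -0.02 and 0.02 in shLuc, and for transport kinesins every library lies between -0.04 and 0.16.

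Transport kinesins did not move together. Of 15 tested, 3 were higher and 2 lower in shIMPA1 than in shLuc, and 2 were higher and 3 lower in shIMPDH2 than in shLuc. The median log2 fold changes were 0.05 and 0.09. Between the knockdowns 3 were higher and 3 lower in shIMPDH2, with a median of 0.08. Over all genes the higher and lower shares were 14.0% and 16.2% in shIMPA1 against shLuc, 7.86% and 9.15% in shIMPDH2 against shLuc, and 13.5% and 12.6% in shIMPDH2 against shIMPA1.

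KIF16B, an early endosome motor that binds phosphatidylinositol 3-phosphate, was lower in both knockdowns. It lies on chromosome 20 (16272104 to 16573434, minus strand). Its normalized counts were 224 and 263 in shIMPDH2, 155 and 146 in shIMPA1, and 391 and 447 in shLuc. The 3 groups did not overlap, and shIMPA1 was lowest. Against shLuc the log2 fold change was -0.78 in shIMPDH2 (SE 0.16, adjusted p = 0.00756) and -1.47 in shIMPA1 (SE 0.16, adjusted p = 0.000101). The call in shIMPA1 held without each library of the pair. The call in shIMPDH2 was lost without either shLuc library or without the first shIMPDH2 library (adjusted p = 0.0562 to 0.115).

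The minus-end motors KIFC3 and KIFC2 differed in direction. KIFC3, a motor of apical vesicles and adherens junctions, had normalized counts of 38.1 and 29.2 in shIMPDH2, 129 and 103 in shIMPA1, and 94.5 and 107 in shLuc. Its shIMPDH2 values were below all others, and shIMPA1 overlapped shLuc. The log2 fold change was -1.56 in shIMPDH2 against shLuc (SE 0.23, adjusted p = 0.00123) and -1.76 in shIMPDH2 against shIMPA1 (0.000416), and both calls held without each library of the pair.

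KIFC2, described in neurons, had normalized counts of 4719 and 4837 in shIMPDH2, 4405 and 4402 in shIMPA1, and 3551 and 2882 in shLuc. All 4 knockdown libraries lay above both shLuc libraries. It rose in shIMPDH2 (0.58, SE 0.13, adjusted p = 0.0117) and in shIMPA1 (0.46, 0.0202) against shLuc. Both calls were lost without the second shLuc library (0.43 and 0.140, and 0.31 and 0.191) and without either shIMPDH2 library. KIFC2 shares 791 exon bases with FOXH1, which averaged 13.1 in shIMPDH2, 11.9 in shIMPA1 and 10.7 in shLuc.

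Among heavy chains of conventional kinesin, the neuronal KIF5A had normalized counts of 334 and 346 in shIMPDH2, 578 and 689 in shIMPA1, and 431 and 443 in shLuc. The 3 groups did not overlap, and shIMPA1 was highest. It was higher in shIMPA1 than in shLuc (0.53, SE 0.14, adjusted p = 0.0152), a call lost without either shLuc library (adjusted p = 0.0911 to 0.110). It was lower in shIMPDH2 than in shIMPA1 (-0.89, 0.00115), which held without each library of the pair.

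KIF5B, the most abundant transport kinesin per kb in each line, had normalized counts of 7163 and 6536 in shIMPDH2, 6442 and 5945 in shIMPA1, and 7631 and 8096 in shLuc. Both knockdowns lay below shLuc, but neither comparison passed (-0.20, adjusted p = 0.293 in shIMPDH2, and -0.34, 0.0540 in shIMPA1). DESeq2 called the shIMPA1 value (-0.35, adjusted p = 0.0340). KIF5C, enriched in neurons, had normalized counts of 935 and 867 in shIMPDH2, 723 and 592 in shIMPA1, and 781 and 891 in shLuc. It was higher in shIMPDH2 than in shIMPA1 (0.46, adjusted p = 0.0334), a call kept only when the first shIMPA1 library was left out (adjusted p = 0.0590 to 0.204 without any 1 of the others).

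Among the neuronal vesicle carriers, KIF1A, which moves synaptic and dense-core vesicles, had normalized counts of 3141 and 2648 in shIMPDH2, 1597 and 1359 in shIMPA1, and 2412 and 2800.2 in shLuc. The shIMPA1 libraries lay below the other 4. The log2 fold change was -0.82 in shIMPA1 against shLuc (SE 0.14, adjusted p = 0.00157) and 0.97 in shIMPDH2 against shIMPA1 (0.000699), and both calls held without each library of the pair. KIF1B, a carrier of mitochondria and lysosomes, had normalized counts of 1302 and 1108 in shIMPDH2, 1322 and 1374 in shIMPA1, and 1245 and 1271 in shLuc. Against shLuc its log2 fold change was -0.07 in shIMPDH2 (SE 0.12, adjusted p = 0.748) and 0.10 in shIMPA1 (0.578).

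Kinesin-2 motors build and serve cilia. KIF3B, the partner subunit of KIF3A, had normalized counts of 2789.8 and 2618 in shIMPDH2, 2384 and 2737 in shIMPA1, and 1912 and 2026 in shLuc. Both knockdowns lay above shLuc, by 0.46 in shIMPDH2 (adjusted p = 0.0248) and 0.38 in shIMPA1 (0.0362) on the log2 scale. The call in shIMPDH2 was lost without any 1 of the 4 libraries compared (adjusted p = 0.119 to 0.191), and that in shIMPA1 without any 1 library but the first of shIMPA1 (0.0784 to 0.197).

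KIF17, a homodimeric motor of dendrites and cilia, had normalized counts of 8.09 and 6.75 in shIMPDH2, 17.1 and 19.0 in shIMPA1, and 33.3 and 20.1 in shLuc. The shIMPDH2 libraries were the lowest of the 6. It fell in shIMPDH2 against shLuc (-1.68, SE 0.39, adjusted p = 0.0138). That call rested on few reads and was lost without any 1 of the 4 libraries compared (adjusted p = 0.0531 to 0.176). KIF3A, KIF3C, KIF13A, KIF13B and KIF1C passed in no comparison.

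**Figure D5:**
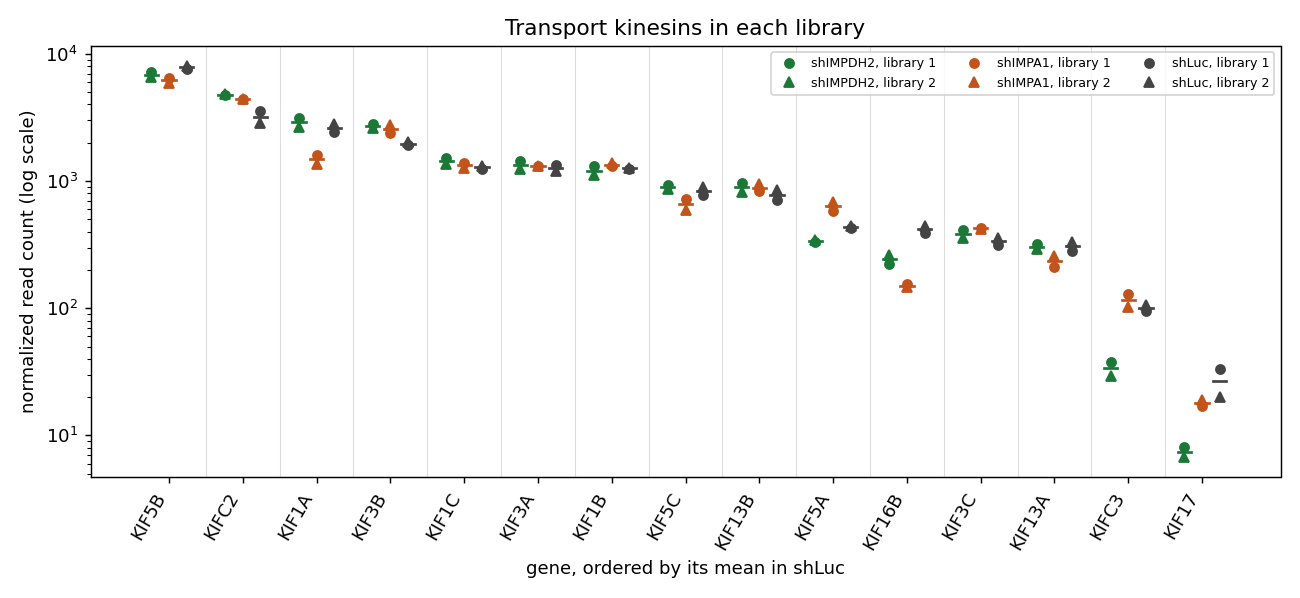
Normalized read counts of the 15 transport kinesins in each library, on a log axis, with shIMPDH2, shIMPA1 and shLuc from left to right within each gene. Circles are library 1, triangles library 2 and dashes the mean of 2. KIF16B and KIF1A are lowest in shIMPA1, and KIFC3 and KIF17 are lowest in shIMPDH2.

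The helpers that tie transport kinesins to cargo were read from 18 light chains and adaptors. In shIMPDH2 against shLuc 1 was higher, with a median log2 fold change of 0.20, and in shIMPA1 against shLuc 6 were higher, with a median of 0.28, beside 7.86% and 14.0% of all genes as higher. With only the shIMPDH2 and shLuc libraries in the fit, 5 were higher, beside 17.5%. Between the knockdowns 2 were higher and 5 lower in shIMPDH2, beside 13.5% and 12.6% of all genes. With only the knockdown libraries in the fit, 2 were higher and 2 lower, where that fit called 1751 and 1671 of 17467 genes. BORCS5, a subunit of the BORC complex that loads lysosomes onto kinesin-1, averaged 348 ± 10.6 in shIMPDH2, 584 ± 70.2 in shIMPA1 and 293 ± 7.73 in shLuc. It rose in shIMPA1 (0.99, adjusted p = 0.000606), as did the light chain KLC3 (0.84, 0.0101). With each of the 4 libraries compared left out in turn, the shIMPA1 calls of BORCS5 and KLC3 held in 4 and 2 of 4 fits.

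Dynein, the opposing minus-end motor, and dynactin had 24 genes tested. In shIMPDH2 against shLuc 3 were higher and 1 lower, and in shIMPA1 against shLuc 1 was higher and 1 lower. The counts in shIMPA1 are below the shares of all genes (14.0% higher, 16.2% lower), and those in shIMPDH2 stand beside 7.86% and 9.15%. Between the knockdowns 3 were higher and 1 lower in shIMPDH2, beside 13.5% and 12.6% of all genes. The intermediate chain DYNC1I2 averaged 2424 ± 262 in shIMPDH2, 1755 ± 283 in shIMPA1 and 1522 ± 77.0 in shLuc, and rose in shIMPDH2 against shLuc (0.67, adjusted p = 0.00891). The light chain DYNLL1 rose in shIMPDH2 against shLuc (0.45, 0.0322) and was higher there than in shIMPA1 (0.78, 0.00136). NDEL1, a dynein regulator, rose in shIMPA1 against shLuc (0.43, 0.0223), and the dynactin subunit DCTN5 was higher in shIMPDH2 than in shIMPA1 (0.46, 0.0302). The difference in DYNLL1 between the knockdowns held without each of their libraries. Among such fits, 4 each, the rises of DYNC1I2 and DYNLL1 in shIMPDH2, of NDEL1 in shIMPA1, and the call of DCTN5 held in 1, 0, 2 and 1.

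Ciliary and other kinesins changed gene by gene. Of 11 tested, 1 was lower in shIMPDH2 than in shLuc, and 1 was higher and 3 were lower in shIMPA1 than in shLuc. Of all genes 9.15% were lower in shIMPDH2, and 14.0% were higher and 16.2% lower in shIMPA1. Between the knockdowns 2 were higher and 2 lower in shIMPDH2, beside 13.5% and 12.6% of all genes. KIF7, the cilium-tip kinesin that regulates Hedgehog signalling, had normalized counts of 120.1 and 94.5 in shIMPDH2, 55.6 and 59.5 in shIMPA1, and 160.2 and 193 in shLuc. The 3 groups did not overlap, and shIMPA1 was lowest. Against shLuc the log2 fold change was -0.72 in shIMPDH2 (adjusted p = 0.0360) and -1.59 in shIMPA1 (SE 0.21, adjusted p = 0.000318). The call in shIMPA1 held without each library of the pair, and the call in shIMPDH2 was lost without any 1 of its 4 (adjusted p = 0.0845 to 0.283) and in DESeq2 (0.0520). KIF7 shares 589 exon bases, 11.8% of its length, with TICRR on the other strand, which averaged 474 in shIMPDH2, 247 in shIMPA1 and 767 in shLuc, so reads of these genes cannot be told apart.

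KIF21B, which slows microtubule growth in neurons and lymphocytes, had normalized counts of 39.3 and 36.0 in shIMPDH2, 168 and 111 in shIMPA1, and 51.3 and 83.1 in shLuc. The 3 groups did not overlap, and shIMPA1 was highest. It rose in shIMPA1 against shLuc (1.05, SE 0.28, adjusted p = 0.0171), a call lost without the first shLuc library (0.71, 0.185). It was lower in shIMPDH2 than in shIMPA1 (-1.83, 0.00108), which held without each library of the pair.

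KIF2A, a depolymerase of spindle poles and of neurons, shares 428 exon bases, 8.97% of its length, with IPO11 on the same strand. Reads of these bases cannot be told apart. IPO11 averaged 777 in shIMPDH2, 523 in shIMPA1 and 612 in shLuc. KIF2A had normalized counts of 1177 and 1058 in shIMPDH2, 715 and 651 in shIMPA1, and 1011 and 1106 in shLuc. The shIMPA1 libraries lay below the other 4. It fell in shIMPA1 against shLuc (-0.63, SE 0.13, adjusted p = 0.00386), a call lost without the second shLuc library (0.0588), and was higher in shIMPDH2 than in shIMPA1 (0.71, 0.00251).

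KIF24, a centriolar depolymerase that restrains cilium assembly, had normalized counts of 445 and 426 in shIMPDH2, 403 and 242 in shIMPA1, and 518 and 505 in shLuc. It fell in shIMPA1 against shLuc (-0.71, adjusted p = 0.0226), and without the second shIMPA1 library the value was -0.34 (0.0615). The call was also lost without any 1 of the shLuc or shIMPDH2 libraries. KIF12, the most abundant kinesin per kb in shLuc, was lower in shIMPDH2 than in shIMPA1 (-0.49, 0.0369), a call lost without any 1 library but the second of shIMPA1, and it passed against shLuc in neither knockdown. KIF6, KIF9, KIF21A, KIF26A, KIF26B and KIF27 passed in no comparison.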

How the data were processed

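The 6 poly(A) libraries came with 1 table of read counts already scaled by library. The submitters' processing notes name Trimmomatic 0.36, STAR 2.5.2b, featureCounts of Subread 1.5.2, DESeq2 and GRCh38. The deposited signal values equal whole reads over a library's own size factor, to within 0.05 reads, for 99.98% to 100% of genes. The annotation release is not given in the sources used here. Deposited log2 fold change and p-value columns, whose comparison is not named, were not used. Coordinates and exon lengths are from GENCODE 29, which holds 17750 of the 17811 identifiers.

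Limma 3.58.1 (R 4.3.3) with a mean-variance trend was fitted to log2(value + 1) of the 17742 genes with at least 10 in at least 2 libraries, with 1 coefficient per group and 3 residual degrees of freedom, and was tested on simulated data. The threshold was a Benjamini-Hochberg adjusted p-value of 0.05 over all genes tested, and the scale understates fold changes of low genes. Alternatives were TMM scaling, edgeR 4.0.16 and DESeq2 1.42.0 on the recovered reads, log2(value + 5), no filter, only the 2 groups compared, no trend, a replicate block and leaving out each library. Members, roles and gene lists were chosen with earlier results of these data known. Full values are given for the 8 mitotic and 8 transport kinesins with the smallest adjusted p and for KIF11, KIF20A, KIF2C, KIF1B and KIF5B. Up to 4 genes per list were named by the smallest adjusted p, and CDKN1A after its value was seen. Some genes that this rule names among the light chains and adaptors are not reported here.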

Additional observations from a re-analysis of the deposited data

How the results depend on the processing

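With all libraries and genes, 20, 7 and 16 kinesins were called for shIMPA1 against shLuc, shIMPDH2 against shLuc and shIMPDH2 against shIMPA1, among 5361, 3018 and 4627 of all genes. With only the 2 groups compared in the fit, the kinesin counts were 13, 18 and 10, among 4085, 6382 and 3422 of all genes. Without the mean-variance trend they were 6, 4 and 10, among 3508, 1727 and 2909 of all genes. Leaving out each library in turn gave 5 to 23, 2 to 18 and 8 to 22 kinesins, among 2147 to 7940, 773 to 6386 and 1430 to 7052 of all genes. Where this left a group with 1 library, that library was assumed to vary like the other groups. Median log2 fold changes then ran from -1.83 to -0.49, from -0.37 to -0.28 and from 0.19 to 1.52 for mitotic kinesins, and from 0.03 to 0.09, from -0.022 to 0.16 and from 0.03 to 0.13 for transport kinesins. The causes were not tested. No called kinesin changed sign under any alternative run.

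Libraries with the same number did not deviate together (correlations of their deviations over genes from -0.05 to 0.04), so the numbers do not pair them. With a replicate block 12 mitotic kinesins were lower for shIMPA1 against shLuc and 7 were higher for shIMPDH2 against shIMPA1. That fit called 5298 and 4537 of all genes in these comparisons, in either direction. Depth limits KIF6 and KIF17 most, with 26 and 60 reads over the shLuc libraries.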
